A study of Mus musculus with 10 samples.

Results

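The 5 tumours described here are the colon tumours labelled KO, 5 of the 10 tumours of the study. Their genotype is written vil-Cre-Bcl9-/-/Bcl9l-/-, meaning that Cre driven by the villin promoter, which is active in intestinal epithelium, removed Bcl9 and Bcl9l there. Stromal, vascular and immune cells of these tumours are outside the reach of that promoter. The tumours came from 3 mice of a mixed 129SvEv/C57BL/6/DBA/2 strain: tumours 2 and 6 from mouse 02, tumours 9 and 11 from mouse 04, and tumour 7 from mouse 99. All mice of the study, the wild-type (WT) mice included, received dimethylhydrazine once at 44 mg/kg when 6 to 8 weeks old. They then drank 2% dextran sulfate sodium for 7 days, a treatment in which a carcinogen and a colitis together give colon tumours. Tumour tissue was cut from hematoxylin-stained frozen sections by laser, and its amplified RNA was hybridised to Affymetrix Mouse Genome arrays. The extraction text speaks of pooling the microdissected samples of a mouse although arrays are listed per tumour, so how far 2 tumours of a mouse are separate extracts is not known. WT arrays, 4 from mouse 72 and 1 from mouse 82, served here only to choose the probe set of each gene and to lend their spread to 1 alternative fit, and no KO against WT comparison was made.

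Bcl9 and Bcl9l are co-factors that tie beta-catenin to Pygopus proteins and so take part in Wnt-driven transcription, the programme that sustains crypt stem cells and most colon tumours. Interferons are cytokines that switch on antiviral and antigen-presenting genes through STAT and IRF factors. HOX genes are clustered homeobox genes whose order on the chromosome follows the body axis along which they are expressed, and the colon keeps the posterior part of that code. A microdissected colon tumour also carries absorptive, goblet and enteroendocrine cells, which are the mature cell types of the colon epithelium, together with fibroblasts, muscle, vessels and leukocytes.

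Interferon genes varied together in the KO tumours, low in tumours 2 and 6 as given below, and their promoters can be searched for the motifs that STAT and IRF factors are known to bind. The core of the interferon-stimulated response element (GAAA, then any 2 bases, then GAAA) was searched on both strands in the 250 bases before each RefSeq gene start (build GRCm38.p6). It was present in 18 of the 39 genes with a promoter window among the 54 interferon genes that were low in tumours 2 and 6, a share of 46.2%. Of all genes tested, 3.22% held it, and of all genes with a RefSeq promoter window 3.46%. Among the other 11 interferon genes it was found in 0 of 6 with a window, too few for a comparison. Over the whole lists it was in 10 of 24 type I genes (41.7%) and 8 of 21 interferon-gamma genes (38.1%). The lists hold known interferon genes, so a share above that of all genes follows from their choice. It says nothing about the tumours. The gamma-activated site TTCNNNGAA, which reads the same on both strands and was counted whether or not it overlapped the core, was present in 8 of the same 39 genes (20.5%), in 3 of those 6, and in 7.14% of all genes tested. Stretches of 80 bases from 5 promoters are shown because their genes carry the core and were among the most variable interferon genes of these tumours. Each is written 5′ to 3′ on the strand of its gene, with the core or its reverse complement in capitals.
Rsad2, chr12:26456528-26456607, minus strand: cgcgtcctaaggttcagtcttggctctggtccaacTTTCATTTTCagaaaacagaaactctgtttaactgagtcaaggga
Oas3, chr5:120777690-120777769, minus strand: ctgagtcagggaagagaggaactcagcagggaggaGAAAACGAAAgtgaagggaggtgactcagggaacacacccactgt
Ifit1, chr19:34640769-34640848, plus strand: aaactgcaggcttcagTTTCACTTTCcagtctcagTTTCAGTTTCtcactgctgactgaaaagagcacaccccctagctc
Ifit3, chr19:34583372-34583451, plus strand: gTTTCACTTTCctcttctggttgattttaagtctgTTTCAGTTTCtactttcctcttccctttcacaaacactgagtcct
Cxcl10, chr5:92349058-92349137, minus strand: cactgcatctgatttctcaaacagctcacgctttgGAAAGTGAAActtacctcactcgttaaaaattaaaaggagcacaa
A match is a description of these letters and does not show that a factor was bound there.

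Signals are log2 values after robust multi-array averaging (RMA), in which a step of 1 is a doubling of probe brightness. Array medians lay between 6.44 and 6.47. Tumours 9 and 11 of mouse 04 were the most alike, with r = 0.991 across probe sets and a median absolute difference of 0.178. Tumours 2 and 6 of mouse 02 were less alike (r = 0.983, 0.204), and tumours 2 and 7 least (r = 0.978, 0.248). The Gapdh control probe sets for the 3′ end exceeded those for the 5′ end by 2.13 in tumour 2 and 1.68 in tumour 6, against 1.33 to 1.49 in tumours 7, 9 and 11. The actin and transferrin receptor controls did not separate tumours 2 and 6 from the others. Tumour 7 alone carries a unique number from a lower range than the other 4, so for it the mouse and that range cannot be told apart. Bcl9 read 8.35 to 8.84 and Bcl9l 8.19 to 8.64, but where these probes lie relative to the deleted parts is not known, so the levels check nothing. Xist read 12.46 to 12.88 in all 5 tumours, and the probe sets of Eif2s3y, Kdm5d, Uty and Usp9y read at most 4.84. Values below are given in the order of tumours 2, 6, 7, 9 and 11 unless said otherwise.

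The brightest genes of the KO tumours included epithelial, ribosomal and immunoglobulin genes, with small SDs at the top of the scale, where probes may be near saturation. Krt19, a keratin of simple epithelia, read 13.72 ± 0.03 (mean ± SD, n = 5). Epcam, the epithelial adhesion molecule, read 13.59 ± 0.07, and Muc13, a transmembrane mucin of enterocytes, 13.53 ± 0.13. These epithelial markers were thus at the top of the scale in all 5 tumours. The immunoglobulin genes Igha (13.92 ± 0.08) and Igk (13.62 ± 0.11), which plasma cells secrete, had similar SDs. Less bright probe sets of the same genes varied more: the SD was 0.23 for Epcam, 0.28 for Muc13, 0.51 for Igk and 0.34 for Rps3, so the small SDs are no measure of steady transcripts. Malat1, a nuclear noncoding RNA, was the brightest of all at 14.02 ± 0.10. The rest of the 20 brightest were Pebp1, AY036118, Rpl41, Eef1a1, Vdac1, Rpsa, Rpl13a, Hnrnpab, Rps18, Ywhae, Wfdc18, Rps3, Rps29 and Hmgn1. The widest of these 20 were Rpsa, a ribosomal protein (SD 0.20), and Wfdc18 (0.19), which read 13.74 and 13.66 in tumours 9 and 11 and 13.29 to 13.50 in the others. Probe sets differ in how strongly they bind, so this is an order of brightness and not of transcript number.

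**Figure D1:**
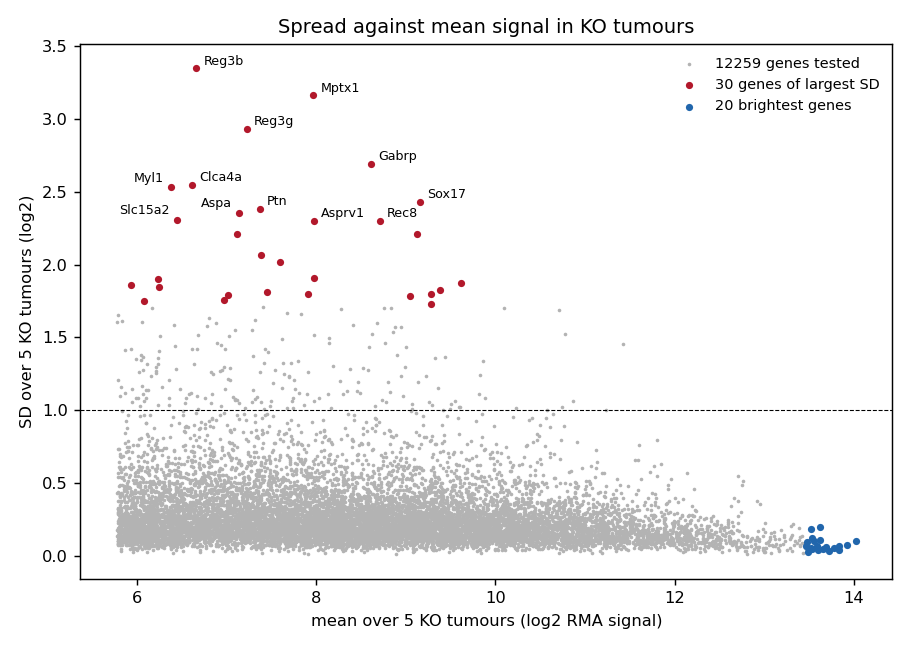
Each point is 1 of the 12259 genes tested, with its mean log2 RMA signal over the 5 KO tumours on the x axis and its SD over them on the y axis. The 30 genes of largest SD (red) lie between means of about 6 and 10, the 20 brightest (blue) have SDs of at most 0.20, and the dashed line marks an SD of 1.

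Most genes differed little between the KO tumours. The median SD over the 12259 genes tested was 0.217, with 5th and 95th percentiles of 0.0795 and 0.655. An SD of at least 1 was reached by 216 genes (1.76%), and 16 genes reached 2. The median SD between 2 tumours of a mouse was 0.170, so much of the spread lay within mice. Over all genes tested, limma's duplicate correlation within mice was 0.248. For the 216 variable genes the median within-mouse SD was 0.946. These genes were chosen for their spread, so the values below describe them without a test.

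To see which genes shared a pattern, each gene's 5 values were split at their largest gap into high and low tumours. The most frequent pattern among the 216 genes was high in tumour 2 alone, with 37 genes (17.1%, against 10.5% of all genes tested). Next came high in tumours 2, 9 and 11 and low in 6 and 7, with 28 genes (13% against 3.13%), and high in 7, 9 and 11 and low in 2 and 6, with 27 genes (12.5% against 2.83%). High in tumours 9 and 11 alone, the tumours of mouse 04, were 16 genes (7.41% against 3.22%). Low in tumour 6 alone were 14 genes (6.48% against 4.51%). Low in tumour 7 alone were 13 (6.02% against 10.3%) and in tumour 2 alone 13 (6.02% against 6.83%), shares at or under those of all genes. Many of the low values below lie under the level filter of 5.78, where probe sets have little signal, so they are not ordered among themselves and the size of a difference from them is uncertain.

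Reg3b, Mptx1 and Reg3g, genes of mucosal defence, had the largest SDs of the tumour 2 pattern. Reg3b and Reg3g encode secreted C-type lectins that act on gut bacteria. Reg3b read 12.47, 4.57, 4.44, 6.47 and 5.36, the largest SD of all (3.35). Reg3g followed it with 12.41, 6.03, 5.22, 6.56 and 5.93 (SD 2.93). Mptx1, a mucosal pentraxin, read 13.15 in tumour 2 and 5.07, 6.08, 7.06 and 8.49 in the others (SD 3.16). In each of the 3 genes tumour 2 exceeded the other 4 by more than those differed among themselves. Myl1, a myosin light chain of skeletal muscle, read 10.91 in tumour 2 and 5.12 to 5.41 in the other 4 (SD 2.53). Reg1 (9.06 against 3.55 to 3.80) and Retnlb (7.33 against 4.39 to 4.77), a goblet cell product with antibacterial activity, showed the same pattern at a mean below the level filter, and were picked after their values were seen. A second Reg3b probe set, also below the filter, read 11.22 in tumour 2 and 2.98 to 5.04 elsewhere.

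Gabrp and Sox17 had the largest SDs among the genes high in tumours 2, 9 and 11. Gabrp, the pi subunit of the GABA-A receptor, read 11.01, 6.44, 5.07, 10.74 and 9.77 (SD 2.69). Sox17, a transcription factor of endoderm and of endothelium, read 10.34, 5.77, 7.43, 11.03 and 11.24 (SD 2.43). Tumours 6 and 7 were thus low for both, although they come from different mice. Krt4, a keratin of squamous epithelia, read 9.35, 5.22, 5.32, 7.57 and 9.45 (SD 2.07), and Asprv1, a protease of cornified epithelium, 10.08, 4.85, 6.21, 9.40 and 9.33 (SD 2.30). Aspa (SD 2.36), Ifitm6 (2.21), Adam28 (2.01), the retinol receptor Stra6 (1.81) and Serpinb11 (1.75) followed the same split. Second probe sets of Sox17, Gabrp and Krt4 were also low in tumours 6 and 7. Krt6a, another squamous keratin, read 8.44, 4.85, 5.96, 7.33 and 7.87, with the same tumours high.

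Ptn, Ces1g, Ccl20, Cbr2 and Slc10a2 were the genes among the 30 of largest SD that were high in tumours 9 and 11 alone. Ptn, the heparin-binding growth factor pleiotrophin, read 6.28, 5.63, 5.15, 9.29 and 10.51 (SD 2.38). Slc10a2, the ileal bile acid transporter, read 6.91, 5.01, 5.47, 8.50 and 8.95 (SD 1.76). The carboxylesterase Ces1g (9.23, 7.97, 7.26, 11.31 and 11.16, SD 1.83) and Ccl20, a chemokine for lymphocytes and dendritic cells (5.15, 5.67, 6.59, 8.23 and 9.43, SD 1.79), were likewise highest in mouse 04. A second Ptn probe set had the same split, while the other, below the filter, read 4.98 to 5.27 in all tumours. Dio2, a deiodinase that activates thyroid hormone, ran the other way with 8.11, 7.29, 7.20, 3.75 and 4.85 (SD 1.85).

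Several genes were set apart by mouse 02 or by 1 tumour. Slc15a2, a peptide transporter, read 8.58 and 9.31 in tumours 2 and 6 and 4.46 to 5.10 in the other 3 (SD 2.31), a difference between mouse 04 and mouse 02 of -4.33 ± 0.29 (SE, limma adjusted p = 0.076). Its other 2 probe sets lay below the filter and did not show this split. Rec8, a cohesin subunit of meiosis, read 4.60 in tumour 7 and 9.61 to 9.83 in the other 4 (SD 2.30). Without tumour 7 its SD was 0.0935. Bex1 read 4.13, 7.46, 4.68, 6.19 and 8.69 (SD 1.90), with tumours 2 and 7 low. Pla2g2a, a secreted antibacterial phospholipase, read 7.33, 9.48, 9.82, 5.39 and 7.53 (SD 1.80), with tumours 6 and 7 high.

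**Figure D2:**
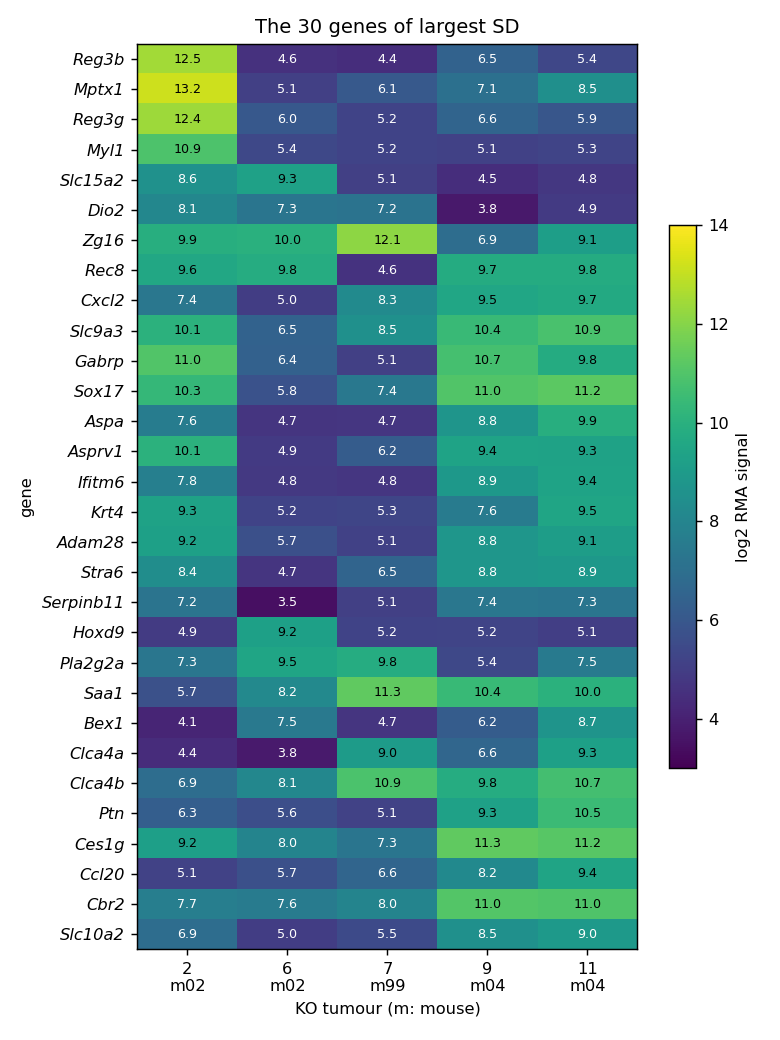
Log2 RMA signal (colour and number) of the 30 genes of largest SD in each KO tumour, with the mouse of each tumour under its number (m02, m99 and m04). Reg3b, Mptx1, Reg3g and Myl1 were high in tumour 2, Gabrp to Serpinb11 in tumours 2, 9 and 11, and Ptn, Ces1g, Ccl20, Cbr2 and Slc10a2 in tumours 9 and 11.

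Between mouse 04 and mouse 02, the mice with 2 tumours each, the gene that rose was Cbr2, a carbonyl reductase. It read 7.70 and 7.57 in mouse 02 and 11.04 and 10.96 in mouse 04, and 7.97 in tumour 7. The difference was 3.36 ± 0.15 (SE) with an adjusted p of 0.040 (limma, Benjamini-Hochberg over 12259 genes), and it was the only gene called higher (0.00816% of genes tested). No gene was called lower (0.00%), while at an unadjusted p under 0.05 there were 708 genes higher (5.78%) and 714 lower (5.82%). Over the 3 mice, limma's moderated F called Rec8 (adjusted p = 0.034) and Cbr2 (adjusted p = 0.044), 0.0163% of genes, and 1461 genes passed unadjusted (11.9%). Mouse 99 is 1 tumour in this test, assumed to vary like the others. The call of Rec8 rests on it: between mouse 04 and mouse 02 Rec8 differed by 0.03 (limma adjusted p = 0.95). Tumours are the replicates in these tests, so the p-values concern these mice and these samples, and what was shared between tumours of a mouse beyond the animal is not known. In simulated data of this size 0% of 200 genes changed 2-fold and 79% of 200 changed 4-fold were recovered. The calls rest on few tumours: without tumour 9 or 11 there was no call, and without tumour 2 there were 39 genes higher and 8 lower. With the Gapdh 3′ to 5′ difference as a covariate, 23 genes were called higher, 6 lower and 43 over the 3 mice.

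Both interferon programmes were low in the 2 tumours of mouse 02 and high in tumours 7, 9 and 11. Of 34 type I interferon antiviral genes tested, 29 were lower in both tumours 2 and 6 than in each of the other 3, and of 31 interferon-gamma response genes 25, against 11.2% of all genes tested. By limma with Benjamini-Hochberg adjustment none of these genes passed between mouse 04 and mouse 02. At an unadjusted p under 0.05, 25 of the 34 and 19 of the 31 were higher in mouse 04 and 0 lower, against 5.78% of all genes. The median difference was 0.96 for the type I list and 0.70 for the interferon-gamma list, against -0.03 for all genes tested. In bulk tissue, fewer cells of a type and less RNA per cell cannot be told apart.

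Within the type I list, tumour 6 was the lower of the pair. Rsad2, which encodes the antiviral enzyme viperin and whose promoter is shown above, read 7.51, 6.54, 10.34, 9.83 and 9.98. The 2 tumours of mouse 02 thus lay at least 2 below the other 3, and the difference between the mice was 2.88 ± 0.34 (SE, limma adjusted p = 0.12). Oas3, a sensor of double-stranded RNA, read 8.01, 5.82, 9.26, 9.76 and 9.22. Ifit1, which binds foreign RNA caps, read 9.19, 7.03, 9.90, 10.35 and 10.16, and its neighbour Ifit3 9.30, 7.88, 10.61, 10.81 and 10.56. In these 3 genes tumour 2 lay nearer to the high tumours and tumour 6 stood lowest. Ifit2, another member with an SD of at least 1, was instead low in tumour 2 alone. Over the list, tumour 6 was lowest in 21 of 34 genes (16.6% of all genes) and tumour 2 in 11 (19.0%). Tumour 9 was highest in 21 (18.0%). Irf7, the factor that amplifies type I interferon signalling, read 6.33, 6.46, 7.90, 8.37 and 8.18 (difference 1.88 ± 0.16, adjusted p = 0.084). Usp18, Mx1, Dhx58 and Ddx60, antiviral effectors and regulators of the same programme, had SDs of 1.22, 1.10, 1.07 and 1.20 and the same 3 tumours high. Irf9, Eif2ak2 and Ifi27l2a varied little, with SDs of 0.13, 0.15 and 0.22.

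Within the interferon-gamma list, tumour 2 was the lower of the pair instead. It was lowest in 27 of 31 genes, against 19.0% of all genes, and tumour 7 was highest in 19 (20.9%). Ido1, which degrades tryptophan, read 7.83, 10.83, 12.07, 11.05 and 11.79 (SD 1.69). Ubd, a ubiquitin-like modifier, read 7.33, 9.59, 10.84, 11.37 and 11.32 (SD 1.70). For both genes tumour 2 stood far below the rest and tumour 6 between. The chemokine Cxcl10, which draws CXCR3-bearing T cells, read 7.80, 8.00, 10.27, 9.75 and 10.33, and Cxcl9 with the same receptor 8.88, 9.04, 10.58, 10.32 and 10.42. The guanylate-binding protein Gbp2 read 9.40, 9.59, 11.03, 11.52 and 11.33 (difference 1.93 ± 0.16, limma adjusted p = 0.084). Cd274, which encodes the checkpoint ligand PD-L1, read 6.33, 6.53, 7.95, 7.97 and 7.82. In these 4 genes both tumours of mouse 02 were low alike, with no overlap with the other 3. The smallest spreads of the list were those of Psme1 (SD 0.19), Serping1 (0.21) and Tapbp (0.24).

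Other measures were set beside this interferon pattern. Leaving out tumour 2, tumour 6 was below tumours 7, 9 and 11 in 32 of the 34 type I genes and 25 of the 31 interferon-gamma genes (22.8% of all genes). Leaving out tumour 6, tumour 2 was below them in 29 and 30 (23.9%). Genes already counted as low in both tumours are among these by definition, so the counts are no separate support. The 2 tumours with low interferon genes also had the largest Gapdh 3′ to 5′ differences, 2.13 and 1.68. For the actin controls the difference was 0.21, 0.04, 0.05, 0.20 and 0.08. For those of the transferrin receptor it was -1.44, -1.20, -1.39, -1.22 and -1.36. Neither control set tumours 2 and 6 apart from the others. The part of RNA quality in the pattern was not tested. The T and NK cell markers, 20 tested of 27 on the array, averaged -0.37, -0.18, 0.25, 0.06 and 0.25 around their own means, and 9 of 20 were lower in both tumours 2 and 6 (11.2% of all genes). Gzma, a granzyme of killer cells, read 6.54, 7.81, 8.88, 8.71 and 8.90, whereas Ifng itself read 5.29, 5.62, 6.95, 5.22 and 6.37. Interferon-gamma transcript was thus as low in tumour 9 as in tumour 2. The part of these cells in the pattern was not tested.

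**Figure D3:**
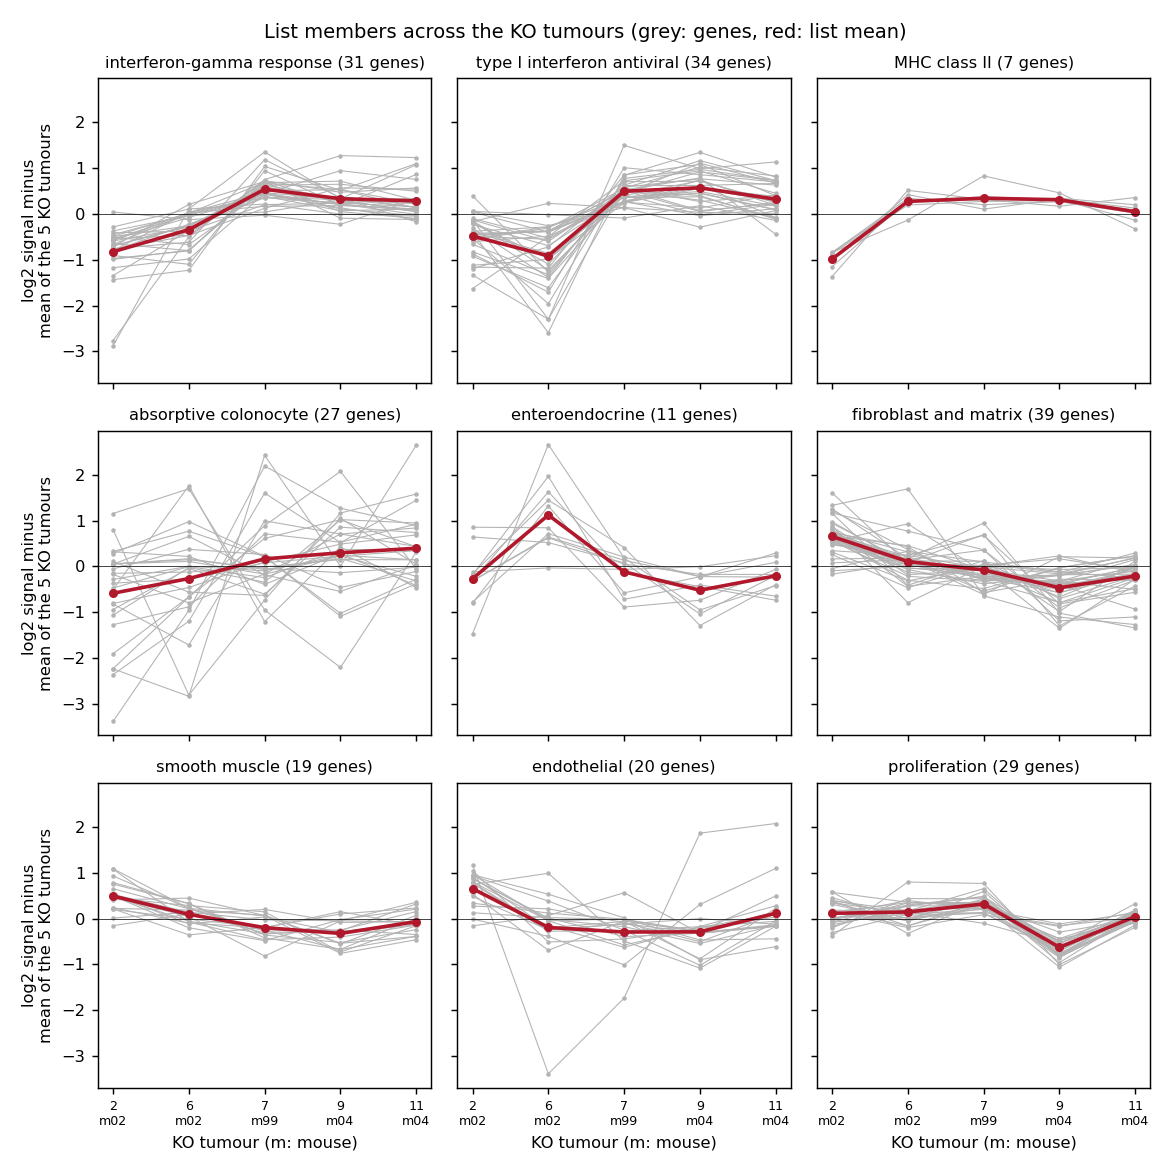
Log2 signal of each list member (grey) minus its own mean over the 5 KO tumours, with the list mean in red, for 9 gene lists. Both interferon lists were low in tumours 2 and 6, MHC class II in tumour 2, enteroendocrine genes were high in tumour 6, and proliferation genes were low in tumour 9.

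MHC class II genes were lowest in tumour 2. All 7 MHC class II genes that passed the level filter, of 11 on the array, were lowest in tumour 2 (19.0% of all genes), and 0 of 7 were lower in both tumours of mouse 02 than in the other 3 (11.2%). H2-Aa, a chain that presents peptides to CD4 T cells, read 11.15, 12.56, 12.24, 12.46 and 12.26. H2-DMa, which loads those peptides, read 8.32, 9.76, 9.77, 9.81 and 9.67. Tumour 2 was thus more than 1 below the other 4, which lay close together. Ciita, the master regulator of these genes, was graded instead, with 7.49, 8.20, 9.16, 8.79 and 8.00. Of 10 MHC class I genes tested, 7 were lowest in tumour 2 (19.0% of all genes) and 3 lower in both tumours of mouse 02 (11.2%). The classical H2-K1 (12.86 to 13.30) and B2m (13.11 to 13.43) differed little, and the widest was H2-Q2 with 5.71, 7.78, 7.20, 8.20 and 7.68. Class I genes of this region are near-identical copies, so signals of H2-Q2, H2-Q5 and H2-Q10 may be shared.

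In tumour 6, 4 posterior HOXD genes had a signal above the level filter that was not reached in the other 4 tumours. Of 33 HOX genes on the array 12 passed the level filter, among them Hoxd9, which read 4.91, 9.25, 5.21, 5.24 and 5.05. Looked up after these values were seen, its neighbours Hoxd10, Hoxd11 and Hoxd13 had means under the filter but followed it. Hoxd13, the last gene of the cluster and a marker of the hindgut and its outlet, read 3.63, 11.38, 4.45, 3.87 and 4.07. Hoxd10 read 9.27 in tumour 6 and 3.20 to 3.59 in the others, and Hoxd11 7.91 and 3.63 to 4.29. In all 4 genes tumour 6 lay above the filter level and the other 4 tumours below it, so the size of the difference is not given, and Hoxd9 passed the filter through tumour 6 alone. A second Hoxd13 probe set read 8.35 in tumour 6 and 4.67 to 5.0 in the others. Other genes of the cluster did not share this on this array: Hoxd12, between Hoxd13 and Hoxd11, read 5.46 in tumour 6 and 5.16 to 5.33 in the others, and Hoxd8 5.11 and 4.56 to 4.81. Hoxd3, Hoxd1 and Evx2 were low in all 5 tumours. The genes flanking the cluster in RefSeq order, Atf2, Atp5g3 and Lnpk on 1 side and Mtx2 on the other, did not set tumour 6 apart in this way: Lnpk, the nearest to Evx2, read 7.98 in tumour 6 and 7.47 to 7.75 in the others. For Mtx2 the 5 values were 10.39, 10.37, 10.66, 10.20 and 10.44. Tumour 2, from the same mouse, was under the filter level for all 4 genes. Hoxd4 was not analysed here.

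**Figure D4:**
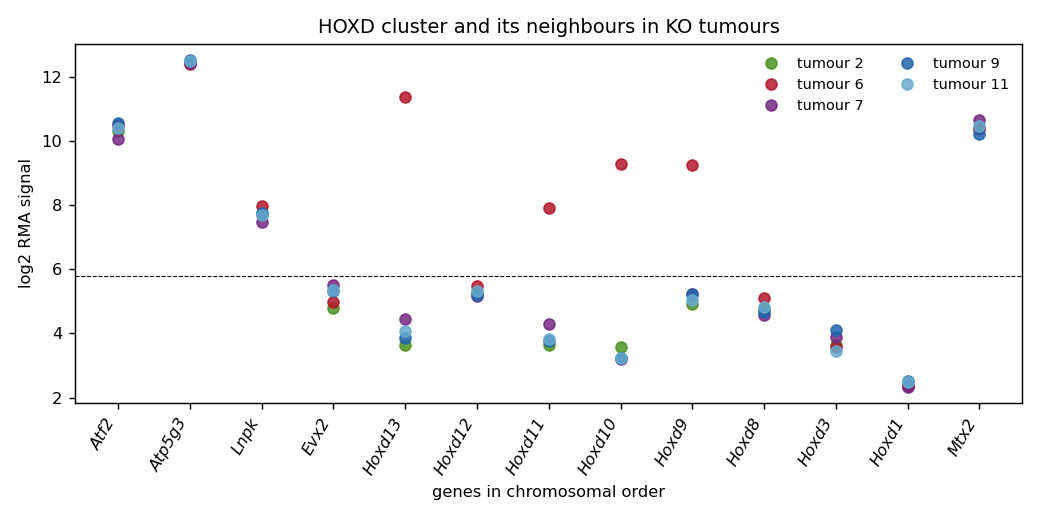
Log2 RMA signal of the HOXD genes and their neighbours in chromosomal order, 1 point per KO tumour, with the level filter (5.78) as a dashed line. Tumour 6 (red) stands above the other 4 at Hoxd13, Hoxd11, Hoxd10 and Hoxd9 and within or close to their range at every other gene drawn.

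Of the 7 HOXA genes tested, Hoxa3, Hoxa5, Hoxa11 and Hoxa13 were lower in both tumours of mouse 04, and Hoxa7, Hoxa9 and Hoxa10 were not. Hoxa5, a regional gene of gut mesenchyme, read 8.52, 8.75, 8.58, 7.47 and 6.99, with a second probe set of the same split. Hoxa11 read 8.36, 7.87, 7.63, 6.83 and 7.05, and Hoxa13, the posterior end of that cluster, 6.74, 6.76, 6.84, 5.81 and 6.29. Both tumours of mouse 04 lay below the other 3 in 5 of the 12 HOX genes tested (15.0% of all genes), and none passed limma's adjusted test (adjusted p = 0.16 for Hoxa5). Hoxa3 read 9.67, 10.39, 10.42, 9.59 and 8.92. Hoxa9 (SD 0.12), Hoxa10 (0.18) and Hoxb13 (0.17), which mark the posterior colon, were steady, and Hoxb9, Hoxb4, Hoxa7 and Hoxc5 had SDs of at most 0.32. The median SD of the 12 was 0.26, near the 0.217 of all genes.

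Absorptive colonocyte genes varied widely, with a median SD of 0.68 over 27 genes tested. They did not move as 1 block. Of the 27, 11 were lower in both tumours 2 and 6 (11.2% of all genes), while 5 were higher in both (13.4%). Among the former, Car1, a carbonic anhydrase of mature colonocytes, read 6.22, 5.32, 8.03, 7.74 and 7.88. Krt20, a keratin of the surface epithelium, read 8.14, 8.53, 10.13, 9.94 and 10.34, with a difference between mice of 1.80 ± 0.22 (SE, limma adjusted p = 0.14). Clca4b and Clca4a, members of a family of secreted channel regulators, read 6.91, 8.08, 10.88, 9.79 and 10.72, and 4.38, 3.78, 9.04, 6.62 and 9.27. For these 4 genes the tumours of mouse 02 were the lowest 2 of the 5, the tumours that were also low for interferon genes. Saa1, an acute-phase protein that epithelium secretes on contact with microbes, read 5.74, 8.17, 11.32, 10.40 and 10.02, and Ceacam20 6.00, 7.25, 8.52, 8.93 and 8.86.

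Other absorptive genes had patterns of their own. Slc9a3, the sodium-proton exchanger of the brush border, was low in tumour 6 with 10.08, 6.47, 8.54, 10.44 and 10.85. Fabp2, a fatty acid carrier, ran the other way with 7.57, 8.11, 5.46, 4.21 and 6.73. Atp12a, a proton pump of the colon, read 5.08, 6.65, 8.21, 9.39 and 7.26. Other members were steady, among them Vil1 (SD 0.14), Car2 (0.19) and Lypd8 (0.21). The villin transcript, from the gene whose promoter drives Cre here, thus read 11.66 to 11.96 in all 5 tumours.

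Goblet cell genes as a list were highest in tumour 6 and lowest in tumour 11. Tumour 6 was highest in 15 of 23 genes tested (15.9% of all genes) and tumour 11 lowest in 14 (14.1%). The median SD was 0.40, against 0.217 for all genes. Atoh1, the factor that commits cells to the secretory lineage, read 6.80, 7.82, 6.87, 6.99 and 6.40. Spdef, which matures goblet cells, read 7.16, 7.24, 7.15, 6.73 and 6.29, and Muc2, the main mucin of the colon, 10.30, 10.04, 10.68, 10.52 and 10.05. Atoh1 thus varied more than the list median, with an SD of 0.52, and was highest in tumour 6 and lowest in tumour 11. An SD of at least 0.5 was reached by 10.1% of all genes. Some products of mature goblet cells varied more than Atoh1 and not together, with SDs of 1.34 for Clca1 and 1.88 for Zg16. Clca1 read 7.70 in tumour 6, 9.52 in tumour 2 and 10.28 or more in the other 3, and Zg16, a mucus lectin, 9.89, 9.99, 12.14, 6.92 and 9.15, with tumour 7 highest and tumour 9 lowest in all 3 of its probe sets. St6galnac1, a mucin sialyltransferase, read 5.50, 8.11, 7.20, 7.27 and 6.55.

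Enteroendocrine genes were highest in tumour 6, the tumour with the HOXD signals. Its list mean lay 1.12 above the genes' own means, against -0.52 to -0.12 in the other 4, and 8 of 11 genes tested were highest there (15.9% of all genes). Chga, the secretory granule protein chromogranin A, read 8.11, 10.05, 8.29, 7.98 and 7.68, and Chgb 10.06, 11.67, 10.64, 8.94 and 9.83. Pyy, a hormone of distal L cells, read 7.95, 10.08, 8.18, 8.53 and 9.05. Nts, which encodes neurotensin, read 4.31, 8.44, 5.97, 4.83 and 5.36, and Scg2 5.68, 7.83, 5.15, 5.46 and 5.22. In all 5 genes tumour 6 was highest, by 1.03 or more over the next tumour. Of 21 genes on the array 10 were below the filter. One of them, Gcg, the proglucagon gene of L cells, read 5.85, 9.11, 4.35, 4.60 and 4.59, and Insm1, a factor of endocrine commitment, 4.29, 6.59, 4.87, 4.86 and 4.53. Sst, the hormone of D cells, was flat at 6.16 to 6.51. Tph1, which makes serotonin, was highest in tumour 2 (6.83) and lowest in tumour 9 (5.15). Of the tuft cell list 7 of 15 genes passed the filter, with a list mean between -0.34 in tumour 7 and 0.25 in tumour 9. The widest was Avil, an actin-binding protein, with 9.98, 8.55, 8.64, 10.01 and 10.70.

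Genes of stem cells and Wnt targets had a smaller median SD than the absorptive, goblet and enteroendocrine lists. The median SD of the 27 tested was 0.32, against 0.217 for all genes, and 9 of them had an SD of at least 0.5 (10.1% of all genes). The list means lay between -0.21 in tumour 7 and 0.19 in tumour 2. Tumours 6 and 7 were both lower than the rest in 9 of 27 genes, against 13.3% of all genes. Axin2 (SD 0.29), Rnf43 (0.07), Sox9 (0.19), Ccnd1 (0.32) and Myc (0.33), widely used readouts of Wnt signalling, varied little or near the median of the list. The secreted Wnt inhibitors were the widest: Wif1 read 6.22, 5.92, 5.83, 7.90 and 9.03, and Dkk2 7.19, 3.81, 6.99, 6.23 and 6.01. Mouse 04 was thus highest for Wif1 and tumour 6 lowest for Dkk2. Msi1, an RNA-binding protein of progenitors, read 8.10, 8.10, 6.32, 5.69 and 7.28. Lgr5, the stem cell receptor, lay below the filter with 6.84 in tumour 2 and 4.76 to 5.38 in the others. The factors of intestinal identity had list means between -0.12 and 0.04 over 17 genes, and Hnf4a an SD of 0.09. Single members varied more than these means: their median SD was 0.27, against 0.217 for all genes. Of the 17, 4 had an SD of at least 0.5 (10.1% of all genes). Cdx2, the homeobox factor of intestinal fate, was highest in tumour 6 with 9.96, 10.91, 10.22, 9.26 and 9.57. Gkn3, a gastric gene, was the widest with 7.63, 5.67, 5.48, 6.50 and 7.07.

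Stromal markers were most often highest in tumour 2 and most often lowest in tumour 9, although the endothelial list mean was as low in tumour 7. Of 39 fibroblast and matrix genes tested, 30 were highest in tumour 2 (28.1% of all genes) and 21 lowest in tumour 9 (24.4%). Of 19 smooth muscle genes 14 were highest in tumour 2 and 9 lowest in tumour 9, and of 20 endothelial genes 15 and 11. The list means ran 0.65, 0.11, -0.08, -0.47 and -0.21 for fibroblasts, 0.49, 0.09, -0.20, -0.32 and -0.07 for smooth muscle, and 0.66, -0.19, -0.29, -0.29 and 0.12 for endothelium. Col1a1, the main chain of fibrillar collagen, spanned little more than 1 step and read 11.16, 10.57, 10.21, 9.91 and 10.24. Acta2, the actin of smooth muscle and myofibroblasts, read 10.66, 10.20, 9.51, 9.35 and 9.63, and Kdr, the VEGF receptor of endothelium, 8.35, 7.32, 7.45, 7.25 and 7.43. These 3 cell types thus shared their highest tumour, which was also the tumour lowest for interferon-gamma and MHC class II genes.

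The widest fibroblast genes, Mmp3, Grem1, Tnc and Mmp13, act in matrix remodelling and stromal signalling. Grem1, Tnc and Mmp13 were lowest in mouse 04, and Mmp3 was low in tumour 7 as well as in mouse 04. Mmp3, the metalloproteinase stromelysin, read 7.57, 7.94, 5.60, 5.14 and 4.97, a difference between mouse 04 and mouse 02 of -2.70 ± 0.19 (SE, limma adjusted p = 0.076). Tnc, the matrix glycoprotein tenascin C, read 11.05, 10.65, 10.24, 8.69 and 8.78, a difference of -2.11 ± 0.19 (adjusted p = 0.087). Neither passed the threshold of 0.05, and for both the tumours of mouse 04 were the lowest 2 without overlap. Grem1, a BMP antagonist of the crypt-base stroma, read 7.54, 6.45, 7.23, 5.26 and 4.94, and Mmp13, a collagenase, 8.89, 7.35, 7.25, 5.94 and 7.01. Over the list, 19 of 39 genes were higher in both tumours of mouse 02 than in the other 3 (13.4% of all genes) and 18 lower in both of mouse 04 (15.0%). At an unadjusted p under 0.05, 19 genes were lower in mouse 04 (5.82%) and 0 higher. Some members did not behave as their list: Sox17 and Prox1, listed as endothelial, were highest in tumour 11 (11.24 and 9.51), and Thbs1 read 8.32 to 8.59 in all tumours. Adipocyte markers had 3 of 12 genes above the filter, with Scd1 at 8.24, 10.28, 10.17, 9.37 and 9.92. Of the enteric neuron and glia markers 6 of 17 passed, with list means between -0.31 in tumour 9 and 0.15 in tumour 11.

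**Figure D5:**
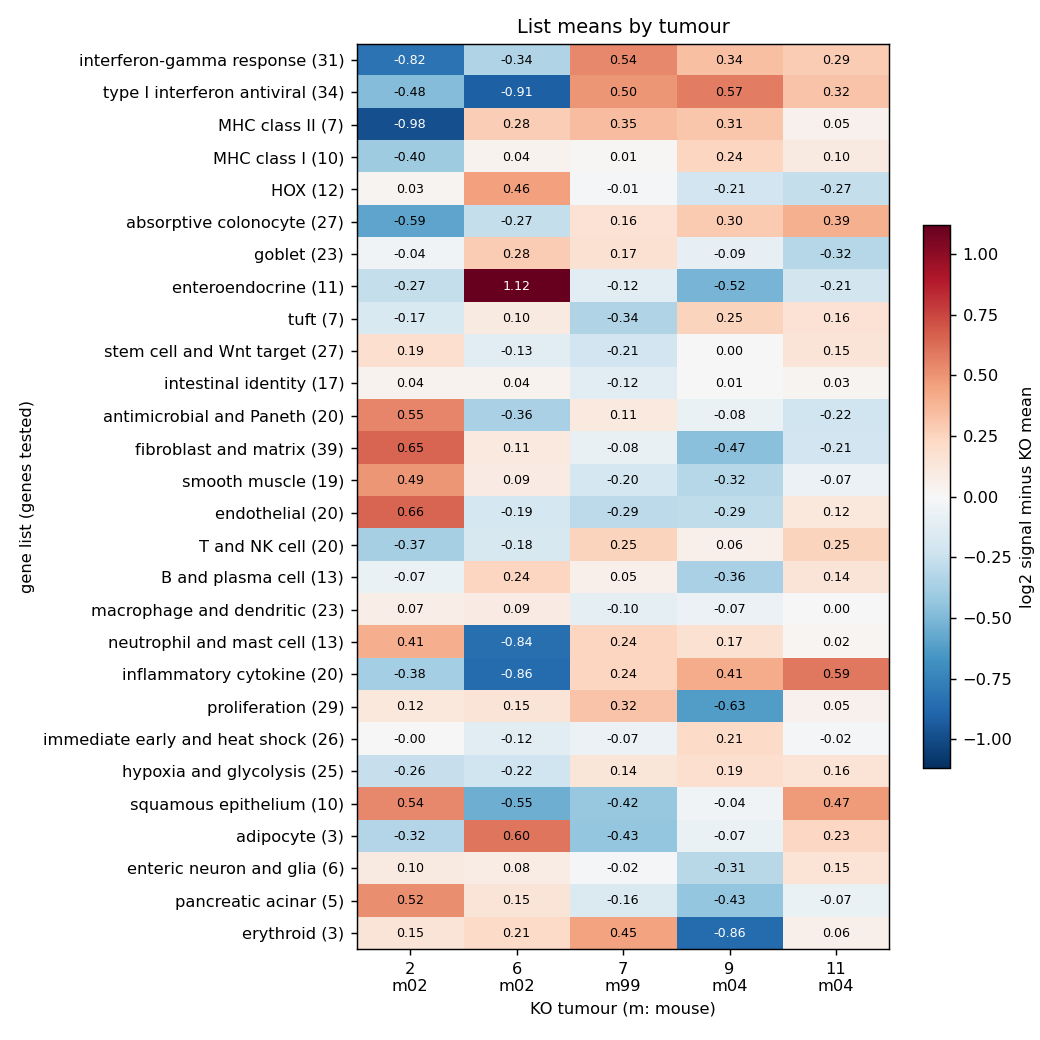
Mean of each gene list in each KO tumour after subtracting each gene's own mean over the 5 tumours (log2, colour and number), with the number of genes tested in brackets. The interferon, inflammatory cytokine and hypoxia lists were below 0 in both tumours 2 and 6, the fibroblast, smooth muscle and endothelial lists highest in tumour 2, and proliferation lowest in tumour 9.

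Inflammatory cytokine genes were low in the tumours of mouse 02 as well, most in tumour 6. Of 20 tested, 13 were lower in both tumours 2 and 6 than in the other 3 (11.2% of all genes), and the list means were -0.38, -0.86, 0.24, 0.41 and 0.59. Cxcl1 and Cxcl2, chemokines that draw neutrophils, read 9.74, 8.80, 10.85, 12.24 and 12.25, and 7.37, 5.02, 8.27, 9.53 and 9.68. Il1b, the cytokine interleukin 1 beta, read 8.48, 8.01, 10.41, 10.15 and 9.40, and Ptgs2, the inducible cyclooxygenase, 7.21, 4.13, 8.20, 6.94 and 6.94. Tumour 6 was lowest in all 4 genes. Tnfaip3, a brake on NF-kappaB, read 8.89, 9.0, 9.72, 10.53 and 10.52 (difference 1.58 ± 0.14, limma adjusted p = 0.087). Neutrophil and mast cell genes were also lowest in tumour 6 in 9 of 13 genes (16.6% of all genes). The mast cell proteases Mcpt1 and Mcpt2 read 10.71, 7.03, 8.73, 7.73 and 10.21, and 10.77, 6.45, 8.79, 7.85 and 9.94. Mmp9, a neutrophil metalloproteinase, read 6.86, 4.77, 6.68, 7.14 and 7.13, so that tumour 6 alone was low.

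Antimicrobial and Paneth cell genes had the widest list spread, a median SD of 0.93 over 20 genes, with no common pattern. Beside the lectins of tumour 2, Lcn2, which withholds iron from bacteria, read 7.11, 3.95, 7.33, 8.07 and 7.54, lowest in tumour 6. Nos2, the inducible nitric oxide synthase, read 5.88, 6.69, 8.33, 8.65 and 8.07, which was the split of the interferon genes. Ang4, a Paneth cell ribonuclease, read 10.29, 10.42, 9.11, 8.78 and 8.43 and ran against it, while Lyz1 and Mmp7 had SDs of 0.38 and 0.39.

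Macrophage and dendritic cell markers were the steadiest of the immune lists, with a median SD of 0.17 over 23 genes against 0.217 for all genes. Csf1r, the receptor for the macrophage growth factor, read 10.10 to 10.54, and Cd68 7.07 to 7.17. C1qb, a complement subunit made by macrophages, was the widest after Adgre1, with 11.01, 11.27, 10.59, 10.48 and 10.77. B and plasma cell genes had a median SD of 0.28 over 13 genes, and Ighm was the exception. It read 9.02, 10.04, 9.15, 5.90 and 9.27, so that tumour 9 stood low, and 4 other probe sets of the gene above the filter showed the same while 3 did not. Jchain, which joins secreted antibodies, was even at 11.89 to 12.40.

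Proliferation genes were lowest in tumour 9. This held for 27 of 29 genes tested, against 24.4% of all genes, and tumour 7 was highest in 16 (20.9%). Mcm6, a subunit of the replicative helicase, read 11.71, 11.49, 11.40, 10.07 and 10.99, and Mcm3 10.14, 9.69, 10.11, 8.73 and 9.76. Ccnb2, a mitotic cyclin, read 9.03, 10.21, 10.18, 8.41 and 9.22. Mki67, the usual marker of cycling cells, read 11.83, 12.13, 12.13, 11.41 and 11.75, so the size of the difference was modest. Tumour 11 of the same mouse was not low, with a list mean of 0.05 against -0.63 in tumour 9, and 1 of the 29 genes was lower in mouse 04 at an unadjusted p under 0.05.

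Hypoxia and glycolysis genes resembled the interferon lists in their low tumours: 14 of 25 were lower in both tumours 2 and 6 (11.2% of all genes). Bnip3, a mitophagy receptor induced by low oxygen, read 7.47, 8.03, 8.99, 9.65 and 9.34, and Egln3, an oxygen-sensing hydroxylase, 9.76, 9.80, 10.64, 11.30 and 11.26. Immediate early and heat shock genes split both ways, with 11 of 26 lower (11.2% of all genes) and 10 higher (13.4%) in both tumours of mouse 02. Atf3, a stress-induced factor, read 7.70, 8.40, 8.90, 9.86 and 9.29, and the chaperone Hspa1b 10.38, 9.26, 8.27, 8.26 and 7.71. These 2 had the largest SDs of the list and ran in opposite directions. Of the squamous list 10 of 21 genes passed the filter, and 4 were low in both tumours 6 and 7 (13.3% of all genes), among them Krt4 and Krt6a, while Krt5, a basal keratin, read 6.12 to 6.51 throughout. Of 14 pancreatic acinar genes on the array 5 passed, and Clps, which encodes colipase, read 10.76 in tumour 2 and 6.67 to 7.40 in the others. Of 6 erythroid genes 3 passed, with Hbb-b2 at 6.71, 6.90, 7.20, 3.95 and 5.79 and Hba-a2 at 11.97 to 12.25.

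Genes with low means but a strong signal in 1 tumour lay outside the level filter. Of 5934 genes below it, 66 had an SD of at least 1, of which 19 were high in tumour 2 alone and 11 in tumour 6 alone. Beside the HOXD genes and Gcg, tumour 6 was high for Syce1, a synaptonemal complex protein (9.25 against 3.22 to 3.80), and Nr5a2, a nuclear receptor of gut and pancreas (8.73 against 3.48 to 4.98). Spink5, a protease inhibitor of stratified epithelium, read 6.23 in tumour 2 and 2.62 to 2.92 in the others. These genes were picked after their values were seen.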

How the data were processed

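Expression was measured on 10 arrays of 45101 probe sets, of which the 5 KO arrays are described. The deposited values are log2 signals that the authors normalised by RMA, per the submitters' processing notes (version and genome build not given in the sources used here). A GEO annotation gave 34945 probe sets 1 gene symbol, 932 several and 9160 none, beside 64 controls, and 34741 were updated by Entrez identifier (204 kept theirs). Per gene the probe set with the highest mean over all 10 arrays was kept (18193 genes). The 12259 genes whose mean over the KO arrays reached the 40th percentile of all probe sets (5.78) were tested. Tumours were grouped by mouse and fitted in limma 3.58.1 (R 4.3.3) without intercept, with 2 residual and 2.95 prior degrees of freedom, and p-values were adjusted by Benjamini-Hochberg over all genes tested. Named genes were the 20 brightest, the 30 of largest SD, those passing a mouse test and the 4 to 8 widest members of each of 29 lists; other genes named serve as steady or below-filter examples and were chosen after their values were seen. Members and lists were chosen with earlier results of these data known. The model was checked on simulated data, with 1.25% false among the calls at 4-fold and 0 calls without an effect. No counts exist for arrays, and the number of tumours limits precision. Alternatives changed the filter, the probe set rule, the normalisation, the spread estimate, a 3′ to 5′ covariate and the tumours included. Promoter windows came from RefSeq (GRCm38.p6, 32851 windows of 27025 genes).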

Additional observations from a re-analysis of the deposited data

Results flagged for a closer look

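In a group of 5, a tumour stood apart where its gap to the nearest other tumour took up more than 0.71 of the whole range (Dixon's critical value). Chance flags about 1 in 20 groups: 697 of all 12259 genes tested (5.69%) were past the value, 17 of the 176 named genes (9.66%) and 4 of the 29 list means (13.8%). The named genes were partly chosen for their spread.

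Tumour 2 stood high for Reg3b (0.748), Reg3g (0.814), Myl1 (0.951), Clps (0.822) and Rgs5 (0.75). It stood low for H2-DMa (0.904), H2-DMb2 (0.815), H2-Aa (0.777), the mean of the MHC class II list (0.777) and AY036118 (0.744).

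Tumour 6 stood high for Hoxd9 (0.925), Hoxd10 (0.935), Hoxd11 (0.845) and Hoxd13 (0.894), for Scg2 (0.8), Chga (0.743) and the mean of the enteroendocrine list (0.756). It stood low for Lcn2 (0.766) and Mmp9 (0.804). Hoxd10, Hoxd11 and Hoxd13 lay below the level filter, were looked up after tumour 6 was seen to be high, and are not in the counts above. Hoxd9 passed the filter through tumour 6 alone. The HOXD values thus follow from how these genes were picked and are no separate support.

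Tumour 7 stood low for Rec8 (0.957) and for the mean of the intestinal identity list (0.796). Tumour 9 stood low for Ighm (0.752), Rps18 (0.754) and the mean of the proliferation list (0.71).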

How the results depend on the processing

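The count of genes higher in mouse 04 (1) became 0 with no level filter, 9 with eBayes trend and robust fitting and 23 with the 3′ to 5′ covariate, and ranged from 0 to 39 when each tumour was left out. The count lower (0) became 3 and 6 in the last 2 of those settings and ranged from 0 to 8. The count over the 3 mice (2) became 1 with no filter, 1 when all 10 arrays shared the spread and 43 with the covariate, and ranged from 0 to 16. With all 10 arrays sharing the spread, neither Cbr2 (limma F adjusted p = 0.53) nor Rec8 (0.26) was called over the 3 mice. Cbr2 was not called between mouse 04 and mouse 02 either (limma adjusted p = 0.40). The 1 gene called higher in that setting and the 1 over the 3 mice were thus other genes. Over the settings that kept every tumour, Cbr2 had limma adjusted p-values from 0.015 to 0.40 between these mice. When a tumour was left out, the Cbr2 difference was 3.30 to 3.43. The 216 genes of SD at least 1 became 122 under the 60th percentile filter. The absorptive list difference between the mice (0.77) became 0.56 with no level filter. Of the list differences between the mice, the endothelial one (-0.32) turned to 0.11 without tumour 2 and was -0.12 under the 60th percentile filter. The enteroendocrine one (-0.79) was -0.09 without tumour 6 and -1.48 without tumour 2. Without tumour 2 the fibroblast one (-0.72) was -0.44 and the smooth muscle one (-0.49) -0.29, and without tumour 6 the goblet one (-0.33) was -0.17 and the HOX one (-0.49) -0.27. Only the endothelial difference changed sign in any setting, and those of both interferon lists and of the other lists checked kept theirs. Of the SDs of named genes, 1310 values under other settings moved by less than the spread between tumours of a mouse and 12 by more, and of those leaving out a tumour 864 and 16. No paired analysis was possible because KO and WT tumours share no number and no WT comparison was made. With 2 tumours a mouse, changes of 2-fold could not be called.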
